A study of Homo sapiens with 19 samples.

Results

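Spectrins, ankyrins and the giant cytolinkers were followed here across the RNA-seq and eCLIP libraries of SH-SY5Y cells, a human neuroblastoma line. The 9 genes were chosen by name: the spectrins SPTBN1, SPTBN4 and SPTAN1, the ankyrins ANK1, ANK2 and ANK3, the spectraplakins DST and MACF1, and the dystrophin gene DMD. They are 9 of the 19942 protein-coding rows of the gene tables, and each was found once in both tables. Of the 19 samples, 15 had values. In eCLIP, RNA is crosslinked to protein by UV light and the fragments that come down with an antibody are sequenced. G3BP1 and G3BP2, a pair of RNA-binding proteins at the centre of stress granules (SGs), were each precipitated from untreated cells and from cells treated with sodium arsenite (AS), with 2 libraries per protein and treatment. A further 5 libraries give the RNA level: cells with a control siRNA (siCtrl), cells with an siRNA against G3BP1 (siG3BP1) or G3BP2 (siG3BP2), the lysate of AS-treated cells (Total), and the SG cores purified from that lysate with an anti-G3BP1 antibody (SG). The last 2 libraries hold rRNA-depleted RNA of untreated cells and of cells given 500 µM AS for 1 h. The protocol label of the other libraries gives 50 mM for 1 h, also for those of untreated and siRNA-treated cells, whereas the study's methods give 500 µM for 1 h as the AS treatment and do not describe AS in the knockdown cells. Each RNA-seq group was 1 library, so its differences have no replicate check and no test, and nothing in the labels says whether the eCLIP pairs came from separate cultures. SG cores isolated with an antibody to G3BP1 hold what that antibody brings down, and the siRNAs leave part of the target RNA.

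Spectrins are long, flexible proteins that pair as alpha and beta subunits and form, with short actin filaments, a mesh beneath the cell membrane. SPTAN1 is the alpha subunit of nonerythroid cells, SPTBN1 its common beta partner, and SPTBN4 a beta spectrin of axon initial segments and nodes of Ranvier. Ankyrins tie this mesh to ion channels, transporters and adhesion molecules: ANK1 in red cells and muscle, ANK2 widely and along axons, and ANK3 at the axon initial segment. DST and MACF1 carry an actin-binding domain, spectrin repeats and a microtubule-binding end, and so link actin to microtubules. DMD encodes dystrophin, whose spectrin repeats lie between actin and the dystroglycan complex of the muscle membrane, with shorter forms in neural tissue. All these proteins are large, and so are their genes and mRNAs.

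On GRCh38 in GENCODE release 44, the longest coding transcript of each gene ran from 8229 bases for SPTAN1 to 24709 bases for DST, against a median of 3091 bases over protein-coding genes. MACF1, at 24340 bases, was close to DST, and the others had 8457 (ANK1), 8910 (SPTBN4), 10226 (SPTBN1), 13992 (DMD), 15298 (ANK2) and 17019 bases (ANK3). The genes differed more than the mRNAs. SPTAN1 covered 81105 bases and DMD 2241933 bases, against a median of 27593 bases for all genes. The number of annotated transcripts ran from 7 for SPTBN1 to 129 for ANK2. GC made up 41.6% of the longest transcript of DST and 42.3% of that of DMD but 66.2% of that of SPTBN4, with a median of 49.0% over all genes.

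The study describes a palindromic motif in the eCLIP peaks, written here as CCAGCCTGG or CCAGGCTGG, each of which is the other's reverse complement. Neither spelling occurred in the longest coding transcript of any of the 9 genes, whereas 30.9% of 19563 protein-coding genes held one in theirs, and 60.2% of the 1436 genes whose longest coding transcript was at least 8229 bases. In the whole gene, introns included, all 9 held it, as did 87.4% of protein-coding genes. The matches numbered 65 in SPTBN1, 70 in SPTAN1, 127 in DST, 144 in ANK1, 153 in ANK2, 156 in SPTBN4, 183 in ANK3, 288 in MACF1 and 469 in DMD. Per 100 kb of gene, DMD had the fewest (20.9) and SPTBN4 the most (142), and the median of all genes was 40.3. Among all annotated transcripts of these genes, the motif was in 19 of 58 for MACF1, 13 of them retained introns, and in 9 of 129 for ANK2, 8 of them retained introns. The motif was also in 6 of 46 for SPTAN1, 3 of 91 for DMD, 2 of 32 for ANK3 and 1 of 16 for ANK1. It was in none of those of SPTBN1, SPTBN4 and DST. A match says where these letters stand, not that a protein was bound there, and the deposited eCLIP values carry no positions within a gene.

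Of the libraries as a whole, the numbers behind the eCLIP values summed to between 4268657 and 26179732 per library, the second library of each pair always being the smaller. The rRNA-depleted values corresponded to 13291959 reads for untreated cells and to 11281587 for cells given AS. Of 8 markers of noradrenergic neuroblastoma, 7 were above 1 TPM in each of the 5 TPM libraries, their sum running from 2234 to 5546 TPM. The 5 skeletal muscle markers summed to between 0.667 and 1.39 TPM in 4 libraries and to 8.21 TPM in SG, 6.42 TPM of it MYH3. The 5 erythroid markers summed to between 2.16 and 3.76 TPM, nearly all of it KLF1, and the 6 Schwann or mesenchymal markers to between 11.96 and 49.3 TPM, with SG highest and COL1A1 leading. The part of such cells in the levels of DMD and ANK1 was not tested. G3BP1 was at 18.7 TPM in siCtrl and 5.996 TPM in siG3BP1, a ratio of 0.320. G3BP2 was at 38.1 TPM in siCtrl and 11.4 TPM in siG3BP2, a ratio of 0.299.

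In siCtrl cells, the nonerythroid spectrin pair was the abundant part of the set. SPTBN1 was at 73.8 TPM and SPTAN1 at 51.7 TPM, TPM being a level already scaled for transcript length. MACF1 at 9.34 TPM and DST at 4.19 TPM came next, followed by ANK2 at 2.61, SPTBN4 at 2.49 and ANK1 at 1.23 TPM. ANK3 at 0.0193 TPM and DMD at 0.00618 TPM were close to 0. The order from SPTBN1 to DMD spans the range from the 92.0th to the 24.3rd percentile of all genes, and without replicates no neighbours in it can be told apart.

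**Figure D1:**
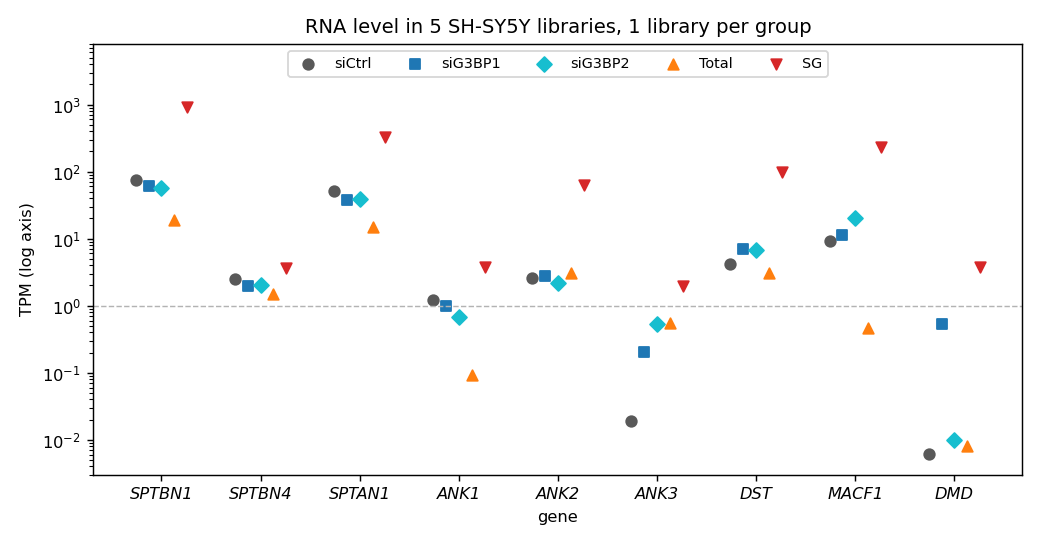
RNA level of the 9 genes in TPM, on a log axis, with 1 point for each of the libraries siCtrl, siG3BP1, siG3BP2, Total and SG and a dashed line at 1 TPM. The SG library is the highest of the 5 for all 9 genes, by a wide margin for SPTBN1 at 933 TPM and MACF1 at 233 TPM and a narrow one for SPTBN4 at 3.61 TPM.

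The question of the SG purification is which RNAs are richer in SG cores than in the lysate they came from. A gene was called SG-enriched where the fold of TPM + 1 in SG over Total was above 2 with more than 1 TPM in SG, and SG-depleted where it was below 0.5 with more than 1 TPM in Total. By this rule 7 of the 9 genes (77.8%) were SG-enriched, 0 were SG-depleted and SPTBN4 and ANK3 were neither. Over all genes with at least 1 TPM in either library, 62.9% were SG-enriched and 9.45% SG-depleted, so that enrichment was the common state. ANK1, ANK3, MACF1 and DMD reached 1 TPM only in SG, and of the 5 genes with at least 1 TPM in Total, 4 were SG-enriched. The share over all genes with at least 1 TPM in Total was not computed, so this count is not read. The median log2 fold of the 9 genes was 3.96, against 1.51 over all genes. Both medians include genes that reached 1 TPM only in SG, and medians without such genes were not computed. Of those among the 9, MACF1 lay above the median of the set and ANK1, ANK3 and DMD below it. Over the 1135 genes with at least 1 TPM whose longest coding transcript had at least 8229 bases, the median was 3.67 and 95.5% were SG-enriched. The median ratio of SG to Total, over genes above 1 TPM in both, was 2.78, a shift of 1.47 on the log2 scale. With that ratio set to 1, the same number of the 9 genes, 7, was SG-enriched, MACF1 at 5.86 and SPTBN1 at 4.05, while SPTBN4 changed sign to -0.13 and ANK3 came to 0.13. In such bulk libraries, fewer cells that hold an RNA and less of it per cell cannot be told apart.

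The spectraplakin MACF1 had the largest fold of the set. It was at 0.463 TPM in Total, and SG had 233 TPM, a log2 fold of 7.32 that lay at the 99.97th percentile of all genes. The level in Total was low for this gene, at 0.0495 times the 9.34 TPM of siCtrl, and against siCtrl its log2 fold in SG was 4.50. Per the study's methods, Total is RNA from the supernatant of a centrifuged lysate of AS-treated cells. The knockdown libraries were made from poly-A RNA of cells without that step, so treatment and preparation both differ in this ratio. DST, the other spectraplakin, was at 100.2 TPM in SG and 3.03 TPM in Total, with a log2 fold of 4.65.

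Among the spectrins, SPTBN1 was at 933 TPM in SG against 19.3 TPM in Total, a log2 fold of 5.53 at the 98.8th percentile. SPTAN1, its alpha partner, was at 326 TPM in SG against 14.9 TPM in Total, with a log2 fold of 4.36. Both were also lower in Total than in siCtrl, at 0.261 and 0.288 times the siCtrl level, with the same differences of treatment and preparation. SPTBN4 stood apart, at 3.61 TPM in SG against 1.52 TPM in Total, a log2 fold of 0.87 at the 34.2nd percentile. Thus a pair of spectrins had folds far above the median of all genes and the third a fold below it. For SPTBN1, the study also reports SG enrichment by RT-qPCR, in SH-SY5Y and in other neuroblastoma lines. By RNA immunoprecipitation it reports an interaction of SPTBN1 RNA with the G3BP proteins, with and without AS.

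The ankyrins were also unlike each other. ANK2 was at 62.6 TPM in SG against 3.10 TPM in Total, a log2 fold of 3.96. ANK1, the red cell ankyrin, was at 3.83 TPM in SG against 0.0922 TPM in Total, with a log2 fold of 2.14. ANK3 was at 1.97 TPM in SG against 0.558 TPM in Total, and its log2 fold of 0.93 missed the threshold. DMD was at 3.76 TPM in SG against 0.00807 TPM in Total, a log2 fold of 2.24. For ANK1, ANK3 and DMD, where Total is below 1 TPM, the added 1 TPM sets much of the fold: with 0.1 TPM added instead, ANK1 and DMD had log2 folds of 4.35 and 5.16, and ANK3 passed the threshold at 1.65, as did SPTBN4 at 1.20.

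**Figure D2:**
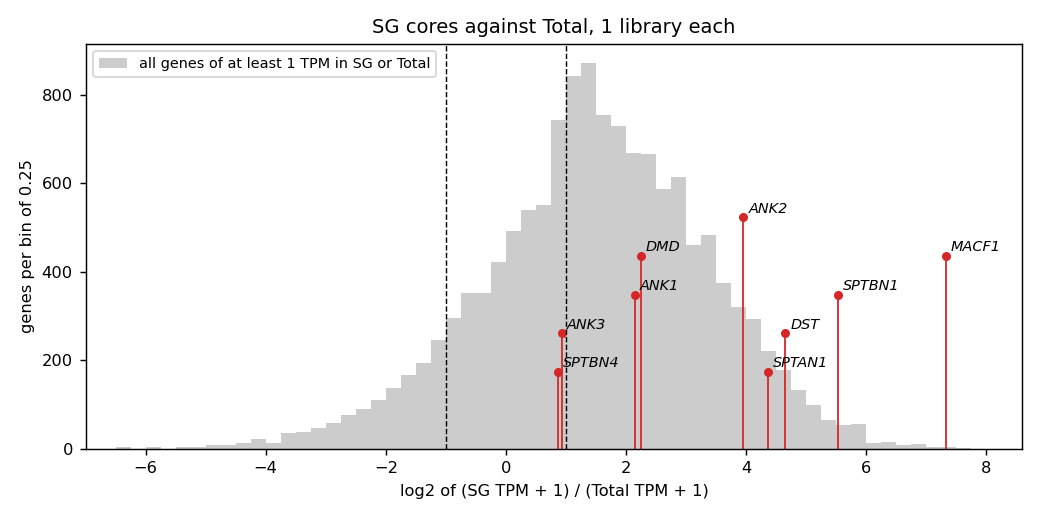
Histogram of the log2 fold of TPM + 1 in SG over Total for all genes with at least 1 TPM in either library (grey, genes per bin of 0.25), with the 9 genes as red lines whose heights serve only to separate the names. Dashed lines mark the fold thresholds of 2 and 0.5, and MACF1 at 7.32 lies in the far right tail while SPTBN4 at 0.87 and ANK3 at 0.93 lie just below the upper threshold.

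The genes that work with these proteins were described by the same rule. Each count is read against the 62.9% of all genes that were SG-enriched. Of the other plakins, PLEC, the cytolinker plectin, was at 204 TPM in SG against 3.89 in Total, and PPL, EVPL and EPPK1 reached 1 TPM only in SG, so no count is read for this list. Of the relatives of dystrophin and the genes of its complex, 7 of 10 (70.0%) were SG-enriched, near that share. They included UTRN, the utrophin gene, at 52.5 TPM in SG against 0.273 in Total, and DAG1, which encodes dystroglycan, at 156 against 7.75 TPM. Of the genes of the spectrin-actin junction 7 of 11 (63.6%) were, also near it, among them the adducin gene ADD1 at 40.96 TPM in Total against 184 TPM in SG. Of the membrane proteins bound by ankyrins 9 of 10 (90%) were, with the adhesion molecule NRCAM at 149 TPM in SG against 11.9 in Total. Of the microtubule partners of spectraplakins 7 of 8 (87.5%) were, with the minus-end binding protein CAMSAP2 at 194 TPM in SG against 4.29 in Total. No gene of these lists was SG-depleted, and their median log2 folds lay between 1.37 and 2.66, against 1.51 for all genes. The counts and medians of these lists include genes that reached 1 TPM only in SG, such as UTRN. By the rule such genes could be SG-enriched or neither, but not SG-depleted.

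The 3 genes whose levels over the 5 TPM libraries lay nearest to those of SPTBN1, by the Euclidean distance of log2(TPM + 1), were TBC1D16 at a distance of 0.901, MYH10 at 0.995 and MEIS2 at 1.04. TBC1D16 was at 67.8 TPM in siCtrl, 21.0 in Total and 555 in SG. Its likeness to SPTBN1 in these libraries follows from the way it was picked and is not a separate result.

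The knockdowns ask whether the levels of these RNAs depend on either protein. A gene was called changed where its TPM ratio to siCtrl was above 2 or below 0.5 with more than 1 TPM in the higher library. With siG3BP1, 0 of the 7 genes of at least 1 TPM were called in either direction, against 2.53% of all genes above 2 and 3.69% below 0.5. With siG3BP2, MACF1 was called higher and 0 were called lower, against 2.43% and 5.62% of all genes. Genes whose longest coding transcript had at least 8229 bases were called lower more often than all genes. With siG3BP1, 3.53% of them were called higher and 8.24% lower, and with siG3BP2 3.37% and 14.1%. Both comparisons share the siCtrl library, so a deviation of that library enters both.

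MACF1 was at 9.34 TPM in siCtrl, 11.4 TPM in siG3BP1 and 20.1 TPM in siG3BP2, with ratios of 1.22 and 2.15. DST was at 4.19, 7.09 and 6.68 TPM, with ratios of 1.69 and 1.59 that stayed under the threshold. The spectrins lay the other way. SPTBN1 was at 73.8, 60.2 and 56.8 TPM, with ratios of 0.816 and 0.769, and SPTAN1 was at 51.7, 37.9 and 39.0 TPM, with ratios of 0.732 and 0.753. SPTBN4 was at 2.49, 1.94 and 2.06 TPM. For ANK1 the values were 1.23, 1.00 and 0.687 TPM, and for ANK2 2.61, 2.80 and 2.20 TPM. ANK3 at 0.0193, 0.206 and 0.527 TPM and DMD at 0.00618, 0.541 and 0.0101 TPM were below 1 TPM in all 3 libraries, where ratios are not read. The median ratio of genes above 1 TPM in both libraries was 0.941 for siG3BP1 and 0.919 for siG3BP2, so SPTBN1 and SPTAN1 lay below it and DST and MACF1 above it in both.

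Among the related lists, PLEC was at 29.8 TPM in siCtrl, 9.27 TPM in siG3BP1 and 9.71 TPM in siG3BP2 and was called lower in both. DTNA, which encodes a dystrobrevin, was called lower with siG3BP1, at 0.225 times its 1.11 TPM in siCtrl. With siG3BP2, DAG1 was called lower, at 7.37 against 22.5 TPM, as were DMTN, an actin-bundling protein of the red cell membrane, at 9.35 against 20.5 TPM, and TMOD2, a tropomodulin of neurons, at 1.66 against 4.93 TPM. No other gene of the list of PLEC reached 1 TPM in these comparisons. In the list of dystrophin relatives and its complex, 1 of 8 genes (12.5%) was lower with siG3BP1, against 3.69% of all genes. With siG3BP2 it was 1 of 9 (11.1%), and 2 of 11 (18.2%) for the spectrin-actin junction, against 5.62% of all genes. No gene of the lists was called higher in either knockdown, against 2.53% and 2.43% of all genes. Such small counts are not read.

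The eCLIP value of a gene is log10 of a whole number plus 1 in each library, which the authors did not scale between libraries. The values are headed peaks, but the numbers sum to far more than the peaks the study reports. The size-matched inputs were not set against them here, so a high rank is not read as binding. In the order of G3BP1 untreated, G3BP2 untreated, G3BP1 with AS and G3BP2 with AS, the first and second libraries of ANK2 were at 5.13 and 4.49, 5.15 and 4.71, 5.08 and 4.40, and 5.13 and 4.66. Those of DMD were at 5.06 and 4.52, 5.13 and 4.73, 5.02 and 4.34, and 5.12 and 4.57. These genes ranked 3 or 4 among all 19942 rows in every one of the 8 libraries. Together they took between 0.943% and 1.10% of all eCLIP numbers in a library, and the 9 genes between 1.14% and 1.31%.

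The spectraplakins and ANK3 came next. DST ran from 3.44 to 4.18 over the 8 libraries, with ranks from 169 to 226, MACF1 from 3.39 to 4.11, with ranks from 218 to 295, and ANK3 from 3.30 to 4.06, with ranks from 303 to 411. The other genes were lower. SPTBN1, the most abundant RNA of the set, ran from 2.56 to 3.38, SPTBN4 from 2.65 to 3.42, ANK1 from 2.65 to 3.51 and SPTAN1 from 2.59 to 3.27, the latter with ranks from 2233 to 4988. Every gene of the set had its higher value in the first library of each pair, in which the library total is larger.

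The order of the eCLIP values was more like that of the span of the annotated transcripts than that of the RNA level. ANK2, at 2.61 TPM in siCtrl, had the highest mean eCLIP value, followed by DMD, at 0.00618 TPM, and SPTAN1, at 51.7 TPM, had the lowest. Over the 9 genes, Spearman's rho of the mean eCLIP value was 0.883 with the summed genomic span of all annotated transcripts, introns included, 0.683 with the length of the longest transcript and -0.467 with TPM in siCtrl. Over 19910 genes the same values were 0.916, 0.563 and 0.139. These are descriptions across genes, which share the libraries and their annotation and are not independent replicates. The summed span was 40408506 bases for ANK2 and 36395335 bases for DMD, and between 459146 and 4764474 bases for the other genes.

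**Figure D3:**
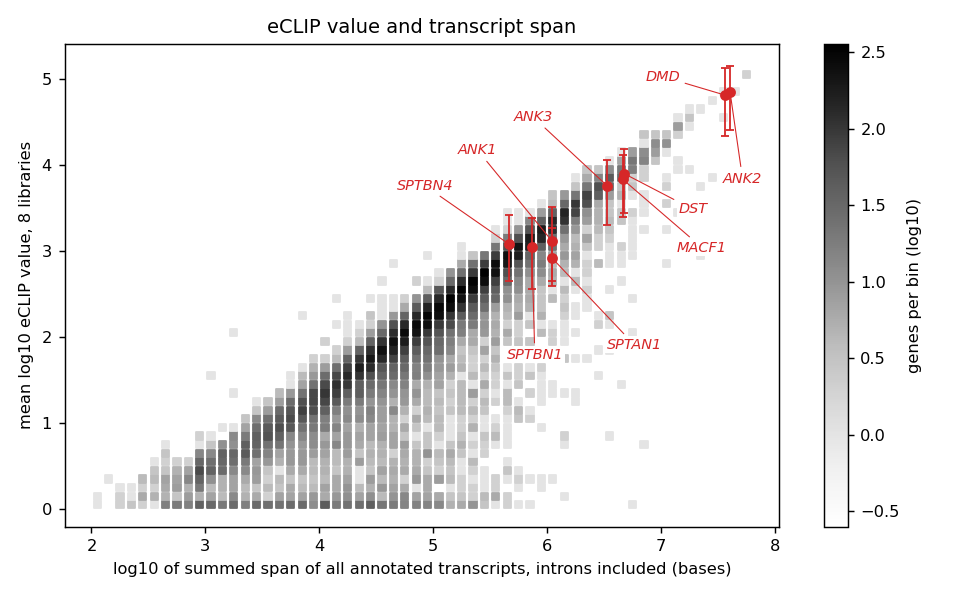
Mean log10 eCLIP value over the 8 libraries against log10 of the summed span of all annotated transcripts of a gene in bases, introns included. Grey squares are bins of all genes shaded by the number of genes, and red points are the 9 genes with bars from the lowest to the highest library. DMD and ANK2 lie near the upper right end of the cloud, and SPTAN1 lies below most genes of like span.

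Per kb of summed span, the numbers lay near or below the middle of all genes. The median over the 8 libraries was 2.18 per kb for DMD and 2.12 for ANK2, followed by ANK3 at 2.06, DST at 2.05, SPTBN1 at 1.85, MACF1 at 1.80 and ANK1 at 1.44, against 2.21 per kb for the median gene. SPTBN4 was above most genes at 3.38 per kb, the 93.4th percentile, and SPTAN1 below most at 0.737 per kb, the 12.5th percentile. Per kb of the gene's own length the picture differed: ANK2, with its 129 annotated transcripts, was at 151 per kb, the 99.95th percentile, and DMD at 35.3, while SPTBN1 at 6.32 was next to the median gene at 6.41. The median percentile of the 9 genes was 98.3 by the eCLIP value itself, 38.9 per kb of summed span, 80.1 per kb of gene and 87.2 per kb of the longest transcript. Which span the deposited numbers were collected over is not given in the sources used here.

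The AS comparison asks whether the RNA crosslinked to each protein differs under stress. With limma, which fits all genes together, 0 of the 9 genes were called for G3BP1 or for G3BP2, where limma called 0% of 18888 genes for G3BP1 and 0.0105% of 19035 genes, 2 in number, for G3BP2. All adjusted p-values of the 9 genes were 1 in both. Between the proteins, 0 of the 9 were called in untreated cells (0% of 19004 genes) and 0 with AS (0% of 18934 genes), nor was an interaction of treatment and protein called for any (0% of 19259 genes). At an unadjusted p under 0.05, 0 of the 9 genes passed in each of the 5 comparisons on the deposited scale, and over all genes 46 did for G3BP1, 159 for G3BP2, 101 and 22 between the proteins and 48 for the interaction. The duplicates differed by 0.22 to 0.79 on the log10 scale for the 9 genes, which is more than the difference of the group means of any of them, at most 0.18 between AS and untreated.

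With each value divided by the library's total, the duplicates came closer together. SPTAN1 was at 48.9 and 57.1 per 1000000 for G3BP1 in untreated cells and at 71.5 and 99.7 per 1000000 with AS. For G3BP2 it was at 38.2 and 49.1 per 1000000 in untreated cells and at 71.4 and 84.1 per 1000000 with AS. Both AS libraries were above both untreated libraries for either protein, with means 1.61 and 1.78 times as high. In limma on the scaled values the change on the log10 scale was 0.20 (SE 0.0737, adjusted p = 0.996) for G3BP1 and 0.25 (SE 0.0604, adjusted p = 0.994) for G3BP2, so the change did not pass the test over all genes. On these scaled values SPTAN1 was the 1 gene of the 9 with an unadjusted p under 0.05 for each protein, as were 484 of all genes for G3BP1 and 637 for G3BP2. In the rRNA-depleted libraries, the longest listed coding transcript of SPTAN1 was at 0.934 times the untreated value with AS.

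In 2 further cases the groups did not overlap. ANK1 was at 79.4 and 86.6 per 1000000 for G3BP1 in untreated cells and at 121 and 104 per 1000000 with AS, 1.36 times as high. SPTBN1 was at 76.2 and 67.8 per 1000000 for G3BP2 in untreated cells and at 92.0 and 82.2 per 1000000 with AS, 1.21 times as high. In all, both AS libraries lay above both untreated libraries for SPTAN1 and ANK1 with G3BP1 and for SPTAN1 and SPTBN1 with G3BP2, and below them for no gene of the set. Over all genes tested, this held upwards for 13.3% and downwards for 14.5% with G3BP1 and for 14.7% and 15.6% with G3BP2, so 2 of 9 genes is near the share among all genes.

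For the other genes the untreated and AS libraries overlapped. ANK2 was at 5624 and 4551 per 1000000 in untreated cells and at 5301 and 5884 per 1000000 with AS for G3BP1, and at 5396 and 4803 and at 5175 and 5964 per 1000000 for G3BP2. DMD was at 4787 and 4876 and at 4617 and 5125 per 1000000 for G3BP1, and at 5153 and 5029 and at 5057 and 4847 per 1000000 for G3BP2. For DST, MACF1, ANK3, DMD and ANK2 the mean with AS was between 0.948 and 1.10 times the untreated mean for both proteins.

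**Figure D4:**
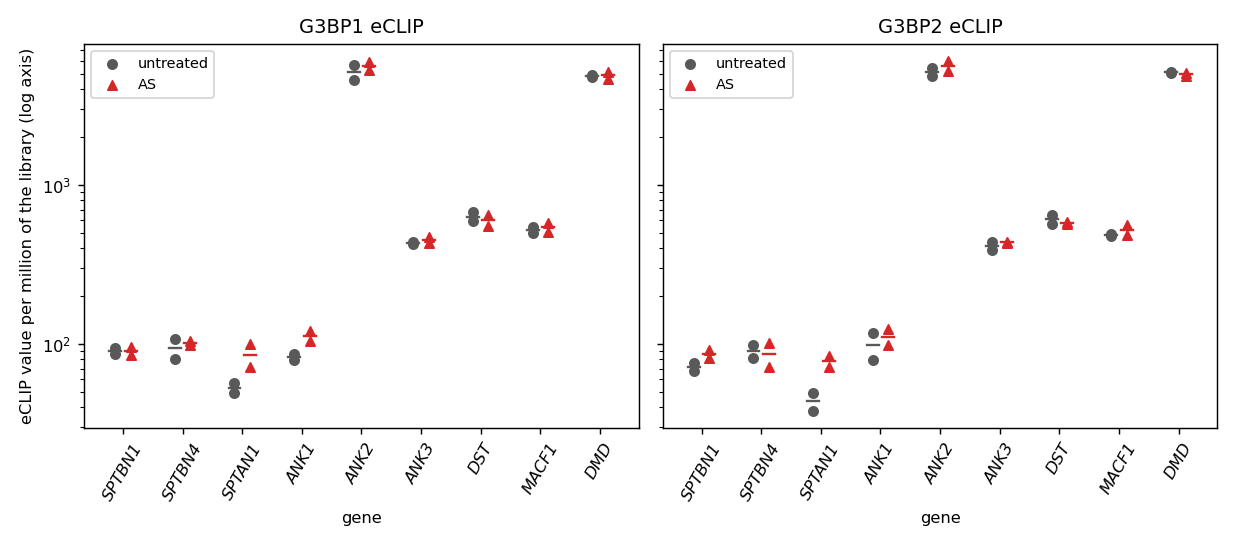
eCLIP value per 1000000 of the library, on a log axis, for the 9 genes in the G3BP1 libraries (left) and the G3BP2 libraries (right), with 1 point per library, untreated in grey and AS in red, and a bar at the mean of each pair. ANK2 and DMD lie between 4551 and 5964 per 1000000 in every library, and SPTAN1 is the gene whose AS points lie above its untreated points in both panels.

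The rRNA-depleted libraries compare AS-treated with untreated cells in RNA that was not selected by a protein. Values there are given per transcript, and reads shared by isoforms are counted in each of them, so transcripts of 1 gene are not independent. Their unit behaves as RPKM, reads per kb of transcript scaled to the library size, and whole reads could be recovered from it. A transcript was called where its ratio of AS to untreated was above 2 or below 0.5 with more than 1 RPKM in the higher library. Of the transcripts of the 9 genes, 0 were called higher and 2 lower, against 6.84% and 2.01% of 100705 transcripts. ANK3 and DMD had 0 transcripts that reached 1 RPKM and so could not be called, while ANK2 alone had 114. Of the other genes, DST had 38 such transcripts, MACF1 32, SPTAN1 28, SPTBN1 7, ANK1 5 and SPTBN4 1. The called transcripts were a retained intron of SPTBN1 (ENST00000602898.1), with 100 reads untreated and 33 with AS, and a DST transcript (ENST00000524186.1) with 11 and 3 reads. Over all transcripts with at least 20 reads in both libraries together, the median ratio was 1.20 and 78.8% were higher with AS, so ratios near 1.20 were the common state.

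The longest listed coding transcript of each gene shows the levels. For the spectrins, SPTBN1 (ENST00000615901.4) was at 36.6 RPKM in untreated and 34.7 RPKM in AS-treated cells, a ratio of 0.948 (95% interval 0.909 to 0.988). SPTAN1 (ENST00000372731.8) was at 22.7 and 21.2 RPKM, a ratio of 0.934 (0.879 to 0.992). These intervals are exact, come from the recovered reads and cover counting error only. SPTBN4 (ENST00000598249.6) had 43 and 44 reads and a ratio of 1.21 (0.774 to 1.88), whose interval includes 1. Of the SPTBN1 transcripts with at least 20 reads 0 of 7 were higher with AS, and of those of SPTAN1 2 of 23.

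The spectraplakins went apart. MACF1 had ratios above 1 in 5 of 30 transcripts with at least 20 reads. Its longest listed coding transcript (ENST00000567887.5) was at 8.96 and 8.04 RPKM, a ratio of 0.898 (0.849 to 0.949). DST had ratios above 1 in 29 of 32, and its longest transcript (ENST00000680361.1) was at 5.38 and 6.44 RPKM, a ratio of 1.20 (1.12 to 1.28) that equals the median of all transcripts to 2 decimals. The interval of MACF1 lies below 1 and that of DST above it, and the intervals do not overlap. With 1 library per group this speaks to counting error only.

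ANK2 was at 4.41 and 4.57 RPKM for its longest transcript (ENST00000672240.1), a ratio of 1.04 (0.941 to 1.14), and 108 of its 119 transcripts with at least 20 reads were above 1. ANK1 was at 0.962 and 1.08 RPKM, a ratio of 1.12 (0.846 to 1.49). ANK3 (ENST00000280772.7) was at 0.212 and 0.323 RPKM, from 48 and 62 reads, a ratio of 1.52 (1.03 to 2.27), and 6 of its 6 transcripts with at least 20 reads were higher with AS.

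DMD had the largest ratios of the set, at a very low level. Its longest transcript (ENST00000357033.9) had 22 reads untreated and 48 with AS, at 0.118 and 0.304 RPKM, a ratio of 2.57 (1.52 to 4.47). The transcript with the highest value (ENST00000680768.2) had 13 and 34 reads, a ratio of 3.08 (1.59 to 6.36). All 39 DMD transcripts with at least 20 reads were higher with AS, with ratios from 2.18 to 6.68 and a median of 2.95, but these rest on largely the same few reads and none reached 1 RPKM, so the call rule leaves them out. Summed over all transcripts of the gene, DMD was at 10.1 RPKM in untreated and 28.9 RPKM in AS-treated cells and ANK3 at 2.44 times its 3.28 RPKM, which would call both higher and the other 7 genes neither. Such sums count a read once for each isoform that shares it.

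**Figure D5:**
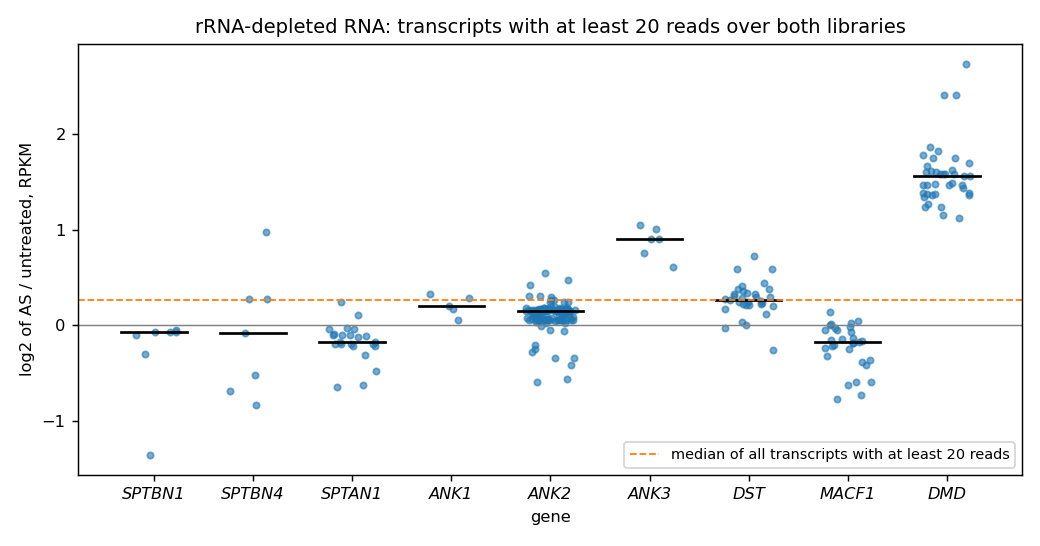
log2 ratio of AS to untreated in the rRNA-depleted libraries for each transcript of the 9 genes with at least 20 reads over both libraries (points, spread sideways at random), with black bars at the median of each gene and a dashed line at the median of all such transcripts (a ratio of 1.20). All DMD and ANK3 points lie above the dashed line, and all SPTBN1 points and most of those of SPTAN1 and MACF1 lie below 0.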

How the data were processed

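Of the 19 samples, the 4 size-matched inputs were not analysed here. Per the study's methods and labels, the authors aligned RNA-seq reads to hg38 with HISAT2 (2.1.0 in the submitters' processing notes) and deposited TPM per gene in 1 table. They processed eCLIP reads to a table of log10 values per gene, deposited unscaled. The deposited rRNA-depleted table is headed TPM, but its columns sum to 1039719 and 1216810, more than TPM can, and its values times transcript length are whole multiples of 1 step within 0.02 reads, so they were treated as RPKM, per the values deposited. TPM gives no depth. Genes were annotated with GENCODE release 44 (19910 of 19942 rows matched), a later release than the authors', and 88.5% of transcripts matched by ID and version.

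Ratios and classes were computed in Python 3.11.15 with pandas 2.3.3 and numpy 2.4.6. For the eCLIP groups, limma 3.58.1 was run in R 4.3.3 (trend, Benjamini-Hochberg at 0.05, genes above 0 in at least 2 libraries). A trial on simulated data used values scaled by library size and changes larger than those of the 9 genes. It therefore says nothing about the power of the fit on the deposited, unscaled values. The p-values measure only the spread between libraries. Overlapping genes can share reads. The 9 genes, the related lists and the markers were chosen with earlier results of these data known, and the minimum of 20 reads, the values per total and the values per kb of gene were chosen after seeing the data. Named transcripts are the longest, the highest or the called ones. Some genes of the related lists and some sequences are not reported here.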

Additional observations from a re-analysis of the deposited data

How the results depend on the processing

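The count of SG-enriched genes was between 5 (minimum of 5 TPM) and 9 (pseudocount of 0.1 or none), against the 7 reported, and 8 against siCtrl in place of Total, an alternative chosen after seeing the data. With fold thresholds of 1.5 and its inverse, the knockdown calls became 1 gene for siG3BP1 (DST) and 3 for siG3BP2 (MACF1, DST and, lower, ANK1), and without a minimum 2 for each. For the rRNA-depleted libraries, sums over the gene reversed the direction, with 2 genes higher and 0 lower, no minimum gave 86 transcripts (77 higher, of which 53 of DMD, and 9 lower), and setting the median ratio to 1 gave 4, all lower. The median eCLIP percentile moved from 98.3 to 38.9 per kb of summed span, 87.2 per kb of the longest transcript and 80.1 per kb of gene, the last chosen after seeing the data.

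For limma, the number of the 9 genes called was 0 under every alternative. Since limma called at most 2 of all genes in any comparison as reported, this says nothing about stability. Where 1 library was left out, its group had 1 library, which was assumed to vary like the remaining groups. The labels do not say that a replicate number marks a shared batch, and there are only 2 numbers. With the replicate block 0 of the 9 genes were called, on the deposited and on the scaled values. The deviations of same-numbered libraries correlated between 0.124 and 0.555 over 6 pairs of groups. Leaving out 1 library on the deposited scale, the SPTAN1 change ran from -0.20 to 0.38 for G3BP1 and from -0.05 to 0.41 for G3BP2, with a reversal at -0.15 and -0.20 for G3BP1 without the second untreated or the first AS library and at -0.05 for G3BP2 without the first AS library. The reversals follow the library totals, since the lone library is compared with a pair of unequal totals.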
